A study of Mus musculus with 24 samples.

Results

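Resting splenic Tconv CD4+ T cells of mtDNA NZB mice were compared with the same cells of mtDNA B6 mice, using 5 NZB and 6 B6 libraries out of the 24 Tconv libraries of the series. Both strains are conplastic, that is, they carry the C57BL/6J nuclear genome and differ in their mtDNA, which comes from NZB mice in one strain and from C57BL/6J mice in the other. No transgene or deletion is named for either group. The study describes mostly male mice of 2 to 3 months, from whose spleens CD4+ cells were enriched by magnetic negative selection and the CD25+ fraction, which holds most regulatory T cells, was separated from the Tconv cells. The other 12 libraries came from activated Tconv cells, whose T cell receptor and CD28 had been engaged with beads, and 1 further resting NZB library (replicate 2) was left out because it held 51409 counts. The resting libraries used here held 2642186 to 3662366 counts in the NZB group and 2615906 to 5456681 in the B6 group. A count is 1 tagged molecule (UMI) from the 3′ end of a polyadenylated transcript. The labels do not say that each library is 1 mouse, so p-values measure the spread between these libraries.

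Naive CD4+ T cells recirculate between blood, spleen and lymph nodes. CCR7 draws them into lymph nodes and S1PR1 lets them leave again, and both receptors are expressed most highly before activation. mtDNA encodes subunits of the respiratory chain together with its own rRNAs and tRNAs, so the remaining subunits and all mitochondrial ribosomal proteins are made from nuclear genes, which the conplastic strains share. Negative selection leaves some RNA of other spleen cells in such preparations, and the mouse spleen also makes red cells and granulocytes.

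Levels of single genes are given as CPM, the count of a gene relative to the TMM-scaled library size. Summed levels of gene lists are CPM of the total counts of a library, without TMM scaling. Differences are given as log2 NZB minus B6 with the standard error (SE). Each of 10702 genes was tested by quasi-likelihood in edgeR, and p-values were adjusted over these genes by the Benjamini-Hochberg method. A gene was called when its adjusted p was at most 0.05 and its log2 difference at least 1 in size. By this rule 112 genes were called, which is 1.05% of those tested, 73 of them higher in NZB cells (0.682%) and 39 lower (0.364%). With no limit on the fold, 390 genes (3.64%) passed, 270 higher (2.52%) and 120 lower (1.12%). The median difference over all genes tested was -0.02. These counts rested on single libraries. Without NZB replicate 6, 315 genes were called (2.89% of 10904), of which 39 were higher (0.358%) and 276 lower (2.53%), and 620 (5.69%) passed with no limit on the fold, 176 higher (1.61%) and 444 lower (4.07%). Without NZB replicate 5, 1 gene was called, Ccr7, and without B6 replicate 1 or B6 replicate 4 there were 4 and 3. Leaving out NZB replicate 1, 3 or 4 gave 200, 203 and 177 calls, and leaving out B6 replicate 3 or 5 gave 35 and 34. A fit of the 11 resting libraries by themselves called 1 gene, mt-Nd4.

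Genes of CD4+ T cells were expressed in both groups, beside those of other cells. Cd4, the coreceptor, stood at 418 to 730 CPM in NZB and 503 to 749 CPM in B6 libraries (log2 -0.03, SE 0.13, adjusted p = 0.914). Cd8a, the coreceptor of cytotoxic T cells, was at 10.8 to 40.8 and 15 to 37.1 CPM. Il2ra, which encodes CD25, was at 1.29 to 5.54 and 1.85 to 3.96 CPM, and Foxp3, the factor that defines regulatory T cells, at 9.64 to 15.9 and 9.66 to 17.7 CPM. The 19 genes of T cell identity, such as Cd3e, Lck and Thy1, summed to 7362 to 13711 CPM in NZB and 9365 to 12174 CPM in B6 libraries, with NZB replicate 6 the lowest. B cell genes summed to more than these T cell genes in 9 of the 11 libraries. In these bulk samples fewer cells of a type and less RNA per cell cannot be told apart.

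In the main fit of 23 libraries Ccr7 was the gene with the strongest evidence of a difference, and it was higher in NZB cells. The NZB libraries held 1212, 1302, 1306, 1985 and 1255 CPM, and the B6 libraries 559, 503, 520, 593, 670 and 950 CPM. All 5 NZB libraries lay above all 6 B6 libraries, which 1.34% of the genes tested did. The log2 difference was 1.16 (SE 0.16, adjusted p = 0.00275), from means of 1412 ± 322 CPM (SD, n = 5) and 632 ± 166 CPM (SD, n = 6). It was 1.20 without NZB replicate 6 (adjusted p = 0.00132) and 1.01 without NZB replicates 5 and 6 (adjusted p = 0.0102). In the resting libraries by themselves it was 1.18 with an adjusted p of 0.153. Counted against the T cell identity genes, Ccr7 gave 94.4 to 161 counts per 1000 in NZB and 40.1 to 79.8 in B6 libraries. The groups stayed apart on this scale too. It does not show which cells the Ccr7 RNA came from, as B cell genes summed to more than T cell identity genes in 9 of the 11 libraries. The libraries fell into 3 sets by their reads per UMI, and within the set that holds NZB replicates 4 to 6 and B6 replicates 5 and 6 Ccr7 was at 1255 to 1985 CPM against 670 to 950. Within the set of NZB replicate 1 and B6 replicates 1 to 4 it was 1212 CPM against 503 to 593. The gene lies at chr11:99035022-99045911 on the minus strand (GRCm39). After activation Ccr7 stood at 474 to 777 CPM in NZB and 329 to 504 CPM in B6 libraries (log2 0.37, SE 0.16), which did not pass the test.

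Of 20 listed genes of naive and quiescent T cells 19 were tested, 2 rose (Ccr7 and S1pr1), none fell, and 16 were above 0. The share of all genes that passed higher was 2.52%, and the median of the list was 0.22 against -0.02 for all genes. Ccr7, 1 of the 2, was singled out with earlier results of these data known. With the library set as a term or scaled to T cell identity genes Ccr7 alone of the list passed. With 4 terms for other-cell RNA it was again Ccr7 alone, with a list median of 0.07. Over all genes 7, 1 and 1 passed in these fits. S1pr1, the egress receptor, was at 293, 401, 414, 512 and 288 CPM in NZB libraries and at 185 to 320 CPM (median 217) in B6 libraries. The groups overlapped in B6 replicate 6, and the log2 difference was 0.70 (SE 0.17, adjusted p = 0.0312). Klf2, a transcription factor of quiescent T cells, split the NZB group. It stood at 3593, 3458 and 3499 CPM in NZB replicates 1, 3 and 4 but at 1342 and 812 CPM in replicates 5 and 6, around the B6 range of 2045 to 3000 CPM. Il4ra, the receptor chain shared by IL-4 and IL-13, was at 328, 368, 371, 782 and 579 CPM against 225 to 276 CPM in B6 (log2 1.00, SE 0.17, adjusted p = 0.0124). Il21r, the IL-21 receptor, was at 333 to 767 CPM against 227 to 315 (log2 0.92, SE 0.17, adjusted p = 0.019). The groups did not overlap for either receptor. Klf2, Il4ra and Il21r were picked out after their values were seen. Whether their RNA and that of S1pr1 came from T cells or from the other cells present was not tested. Of 15 tested genes of homing and egress the same 2, Ccr7 and S1pr1, rose and none fell. Of 12 genes of T cell activation 1 rose, Il2 (log2 1.53, SE 0.39, adjusted p = 0.0373), at 3.21 to 11.4 CPM against 1.58 to 2.59, and without NZB replicate 6 it did not pass (log2 1.21, adjusted p = 0.0708). Il2 was picked out after its values were seen. Of 14 tested memory and effector genes and 9 tested genes of regulatory T cells none passed. Of 21 genes of T cell receptor signalling all were tested, 1 rose and none fell. Of the 19 T cell identity genes 2 rose and none fell, among them Cd2, an adhesion receptor, with a log2 difference of 0.40 (SE 0.11, adjusted p = 0.0499) that did not pass in 33 of 44 alternative analyses.

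**Figure D1:**
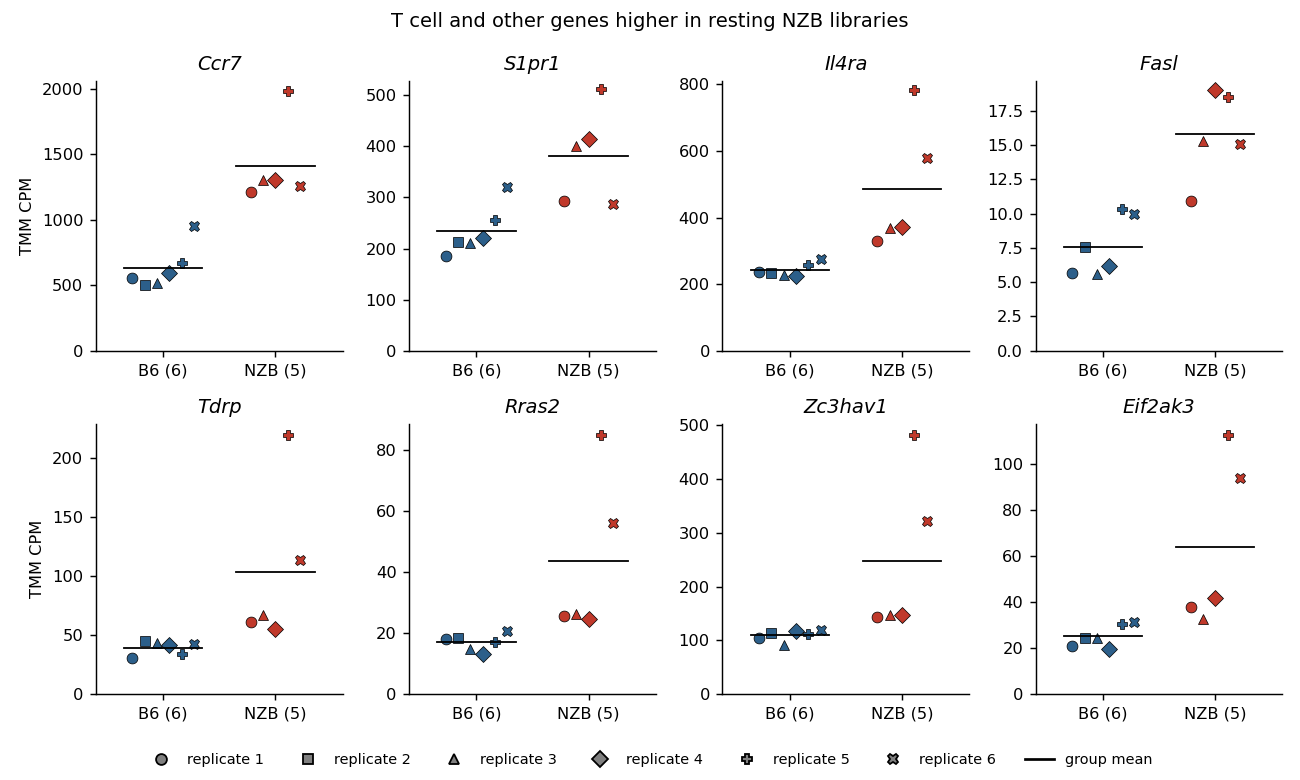
Levels of 8 genes higher in NZB cells, in TMM-scaled CPM on linear axes from 0, for 6 B6 (blue) and 5 NZB (red) resting libraries, with marker shapes for replicate numbers and a line for the group mean. For Ccr7 and Fasl all NZB libraries lie above all B6 libraries, with replicate 5 the highest for Ccr7 at 1985 CPM and replicate 1 the lowest for Fasl at 10.9 CPM, near the top B6 library at 10.4 CPM, whereas Tdrp, Rras2, Zc3hav1 and Eif2ak3 are highest in NZB replicates 5 and 6.

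Rras2 and Tdrp were higher in every NZB library than in any B6 library, but by unequal amounts. Rras2, a RAS-family GTPase, was at 25.7, 26.4, 24.4, 85.0 and 56 CPM in NZB and at 13.1 to 20.7 CPM (median 17.5) in B6 libraries. Its log2 difference of 1.33 (SE 0.33, adjusted p = 0.0362) came to 0.58 (adjusted p = 0.42) once NZB replicates 5 and 6 were left out. Tdrp, named for testis development, was at 60.8, 67.1, 54.6, 219 and 114 CPM against 30.4 to 44.7 CPM (median 41.9), a log2 difference of 1.39 (SE 0.27, adjusted p = 0.0198) that fell to 0.64 (adjusted p = 0.0872) without these libraries. So for both genes the libraries did not overlap, and the size of the difference was set mainly by replicates 5 and 6. Rras2 lies at chr7:113646017-113717170 and Tdrp at chr8:14001604-14025471, both on the minus strand. Of 18 RAS family GTPases and regulators 16 were tested and 3 rose, none fell, where 2.52% of all genes passed higher. Rras2, 1 of the 3, was singled out with earlier results of these data known. None of the list passed with the library set as a term, scaled to T cell identity genes, with 4 terms for other-cell RNA or without NZB replicates 5 and 6. Over all genes 7, 1, 1 and 123 passed in these fits. Among the 3 that rose was Rap1b, which acts in integrin adhesion (log2 0.94, SE 0.22, adjusted p = 0.028), and its highest libraries were again replicates 5 and 6.

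By size, 10 named genes were called higher with groups that did not overlap and a mean of at least 10 CPM. Besides Ccr7, Tdrp and Rras2 these were Eif2ak3, Jup, Fam222a, Zc3hav1, Hip1r, Fasl and Ppp2r2a, with log2 differences of 1.04 to 1.32 for the latter 7. Fasl, the death ligand of activated lymphocytes, was at 10.9, 15.3, 19.0, 18.5 and 15.1 CPM against 5.61 to 10.4 CPM (log2 1.05, SE 0.26, adjusted p = 0.0358), with NZB replicate 1 close to the highest B6 library, and the difference was 0.99 without NZB replicates 5 and 6 (adjusted p = 0.102). Eif2ak3, the kinase PERK of the endoplasmic reticulum stress response, was at 32.6 to 41.8 CPM in NZB replicates 1, 3 and 4, at 113 and 94.0 CPM in replicates 5 and 6, and at 19.3 to 31.4 CPM in B6 libraries. Zc3hav1, an antiviral zinc finger protein, was at 143 to 147 CPM, at 483 and 322 CPM, and at 90.8 to 120 CPM in these same libraries. Hip1r ends within the last 1000 bases of Vps37b on the other strand, and whether the counting used strand is not given in the sources used here. Rel, a subunit of NF-kB, was at 7.07 to 13.8 CPM against 2.85 to 5.92 (log2 1.08, SE 0.30, adjusted p = 0.0486), a gene picked out after its values were seen, and Irs2, an adaptor of insulin receptors, at 94.4 to 188 CPM against 41.7 to 125 (log2 1.00, SE 0.24, adjusted p = 0.0337).

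Most of the genes called higher were high in NZB replicates 5 and 6. In 69 of the 73 these replicates were the highest 2 of the 11 libraries, which held for 18.9% of all genes tested. Crem, a transcription factor of cAMP signalling, stood at 478 and 380 CPM in replicates 5 and 6, at 22.8, 29.7 and 41.8 CPM in NZB replicates 1, 3 and 4, and at 15.9 to 34.3 CPM in B6 libraries. Nr4a3, an orphan nuclear receptor gene induced by T cell receptor signals, stood at 275 and 197 CPM in replicates 5 and 6, at 7.07 to 13.0 CPM in the other NZB libraries and at 4.62 to 22.2 CPM in B6. Ramp3, a partner of G protein-coupled receptors, reached 283 and 358 CPM against 18.0 to 35.8 and 14.3 to 22.1, and Fosl2, an AP-1 subunit, 295 and 242 CPM against 22.5 to 45.6 and 8.59 to 44.4. Outside replicates 5 and 6 the NZB values of these genes lay within or near the B6 range. The log2 differences over 5 NZB libraries were 2.96 (SE 0.56) for Crem, 3.21 (SE 0.71) for Nr4a3, 3.00 (SE 0.55) for Ramp3 and 2.36 (SE 0.50) for Fosl2, all past the test. Without replicates 5 and 6 they were 0.38, -0.18, 0.58 and 0.59, with adjusted p of 0.506, 0.907, 0.296 and 0.496. In the fit without these 2 libraries 89 genes were called (0.794% of 11205), 3 higher (0.0268%) and 86 lower (0.768%). Of the 18 immediate-early genes listed, such as Fos and Egr1, 1 rose (Nr4a3) and none fell, with a median of -0.09. These genes were picked out after their values were seen. Replicates 5 and 6 shared a set of libraries with NZB replicate 4 and B6 replicates 5 and 6. What sets them apart was not tested.

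**Figure D2:**
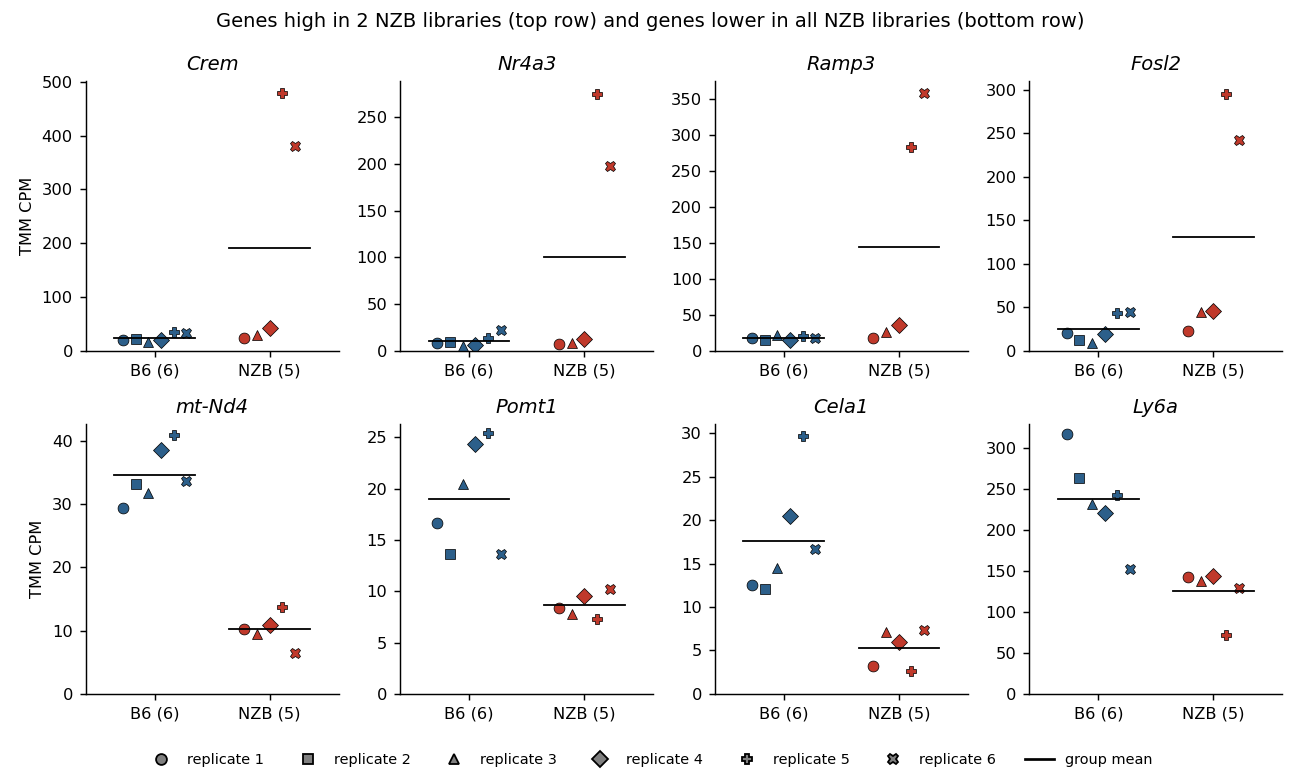
Levels of 4 genes that are high in NZB replicates 5 and 6 (top row) and 4 genes that are lower in NZB cells (bottom row), in TMM-scaled CPM on linear axes from 0, drawn as in the plot of higher genes. For Crem the other NZB libraries sit at 22.8 to 41.8 CPM, near the B6 libraries, and for mt-Nd4 the NZB libraries sit at 6.54 to 13.8 CPM, below all B6 libraries.

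mt-Nd4, the mtDNA gene of a complex I subunit, was lower in all NZB libraries. It was at 10.3, 9.45, 10.9, 13.8 and 6.54 CPM in NZB and at 29.4, 33.3, 31.7, 38.6, 40.9 and 33.6 CPM in B6 libraries. The groups did not overlap, and the log2 difference was -1.76 (SE 0.36, adjusted p = 0.0217), and it was -1.76 without NZB replicates 5 and 6 too (adjusted p = 0.0284). In the fit of the resting libraries by themselves it had an adjusted p of 0.00344. It was also lower after activation (log2 -2.42, SE 0.40, adjusted p = 0.0294), where it was the 1 gene of 10702 (0.00934%) that passed. The gene lies at chrM:10167-11544 on the plus strand. Reads were mapped to the C57BL/6J reference, from which NZB mtDNA differs, and the effect of this on mt-Nd4 counts was not tested. Of 15 mtDNA-encoded genes 6 were tested, 1 fell and none rose. mt-Cytb, of complex III, was at 96.9 to 177 CPM (median 136) in NZB and at 48.6 to 96.4 CPM (median 73.7) in B6 libraries, so the groups did not overlap, but its difference of 0.79 (SE 0.28) did not pass (adjusted p = 0.0982). Differences of mt-Nd1, mt-Nd5, mt-Rnr1 and mt-Rnr2 ran from -0.69 to 0.18 and none passed. Per 100 counts of mt-Cytb, mt-Nd4 gave 5.34 to 10.1 counts in resting NZB and 32.9 to 60.6 in resting B6 libraries. Activated B6 libraries gave 39.2 to 113, and activated NZB libraries 3.48 to 7.53 apart from replicate 1, which gave 26.2 (17 mt-Nd4 counts). The library labelled resting NZB replicate 2, which was left out for its depth, gave 119 (86 mt-Nd4 and 72 mt-Cytb counts). This was above all other NZB libraries and above all B6 libraries too, and the reason was not tested. With that library in the fit the mt-Nd4 difference was 0.81 (adjusted p = 0.747).

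Among nuclear genes, Cela1, Pomt1, Sppl2b and Prss50 were lower in every NZB library than in any B6 library. Genes with this order made up 0.981% of those tested. Cela1, an elastase gene, was at 3.21, 7.17, 5.97, 2.59 and 7.36 CPM against 12 to 29.7 CPM (log2 -1.74, SE 0.30, adjusted p = 0.0124). Pomt1, which adds mannose to proteins, was at 8.36, 7.82, 9.51, 7.33 and 10.2 CPM against 13.6 to 25.4 CPM (log2 -1.14, SE 0.19, adjusted p = 0.0124). Sppl2b, an intramembrane protease, was at 12.5 to 23.9 CPM against 25.7 to 52.9 (log2 -0.99, SE 0.17, adjusted p = 0.0124), and Prss50, a serine protease gene, at 1.29 to 5.31 CPM against 5.70 to 19.7 (log2 -1.90, SE 0.41, adjusted p = 0.0225). These 4 genes all kept their direction, at -1.70, -1.15, -0.85 and -2.15, without NZB replicates 5 and 6 and still passed. With the library set as a term in the fit, 5 genes (0.0467%) were called, namely Cela1 (log2 -1.89), Pomt1 (log2 -1.09), Sppl2b (log2 -1.01), Ccr7 (log2 1.07) and Vps37b (log2 1.48). Tedc2 was also called lower with groups that did not overlap (log2 -1.02, SE 0.26, adjusted p = 0.0365). With Cela1, Pomt1, Prss50 and mt-Nd4 it made up the 5 named genes of this kind. Sppl2b passed in the main fit but was not called, as its difference was under the fold limit. The last 1000 bases of Pomt1 overlap Uck1 on the other strand.

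Interferon-stimulated genes lay mostly below 0. Of 25 listed 24 were tested, 23 were below 0, where 52.6% of all genes lay, and 2 fell, where 1.12% of all genes did, with a median of -0.52. None passed with the library set as a term or with other-cell RNA as 4 terms, where 7 and 1 of all genes did. With erythroid and granulocyte RNA as 2 terms and no NZB replicate 6 the list median was -0.02. Of its genes 14 were then below 0, where 50.7% of all genes lay. In that fit none of the list passed, and 0 of all 10904 genes did. Ly6a, which encodes the surface protein Sca-1, was at 142, 138, 144, 71.2 and 129 CPM in NZB and at 152 to 316 CPM (median 237) in B6 libraries (log2 -0.93, SE 0.19, adjusted p = 0.0224). Ifi27l2a was at 332 to 436 CPM against 548 to 883 CPM (log2 -0.75, SE 0.17, adjusted p = 0.027). Neither overlapped between the groups. The summed level of the list, without TMM scaling, was 1161 to 1797 CPM in NZB and 1808 to 2693 CPM in B6 libraries. The groups did not overlap, but the highest NZB and the lowest B6 library were close.

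Of 87 listed nuclear subunits of the respiratory chain and ATP synthase 81 were tested, 5 fell, none rose, and 72 were below 0, where 52.6% of all genes tested lay. Over all genes 1.12% fell and 2.52% rose, which is the background for each list in this paragraph. The median was -0.22. None passed in the resting libraries by themselves, scaled to T cell identity genes, with the library set as a term or with other-cell RNA as 4 terms. Over all genes only 1, 1, 7 and 1 passed in these fits, so they say little about the list. The 5 that fell were Ndufa10 (log2 -0.37, SE 0.08, adjusted p = 0.0255), Ndufs6 (log2 -0.43), Ndufs7 (log2 -0.47) and Ndufc1 (log2 -0.54), all of complex I, and Uqcr11 of complex III (log2 -0.60). For Ndufa10 the libraries ran from 115 to 151 CPM in NZB and from 166 to 199 CPM in B6, with no overlap. Of 78 mitochondrial ribosomal protein genes 74 were tested, 3 fell (Mrps17, Mrpl34 and Mrpl22, log2 -0.43 to -0.60) and 1 rose, with a median of -0.25. The one that rose was Mrps6, at 215 and 129 CPM in NZB replicates 5 and 6 and at 49.5 to 53.0 CPM in the other NZB libraries against 43.2 to 55.2 CPM in B6. Of 81 tested cytosolic ribosomal protein genes none passed, and their median was 0.09. Of 27 tested antioxidant genes 2 fell, Glrx2, a mitochondrial glutaredoxin (log2 -0.44, SE 0.12, adjusted p = 0.0405), and Gclm of glutathione synthesis (log2 -1.0, SE 0.28, adjusted p = 0.0488), with a list median of -0.22. Of 16 tested genes of mtDNA replication and transcription none passed, with a median of -0.03. Of 13 tested genes of the integrated stress response 1 rose, Sesn2, and 1 fell, Gdf15, a stress cytokine gene (log2 -1.30, SE 0.36, adjusted p = 0.0451). Sesn2 had 114 and 91.1 CPM in NZB replicates 5 and 6 and 11.1 to 20.7 CPM in all other resting libraries used, and its difference did not pass in 32 of 44 alternative analyses.

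**Figure D3:**
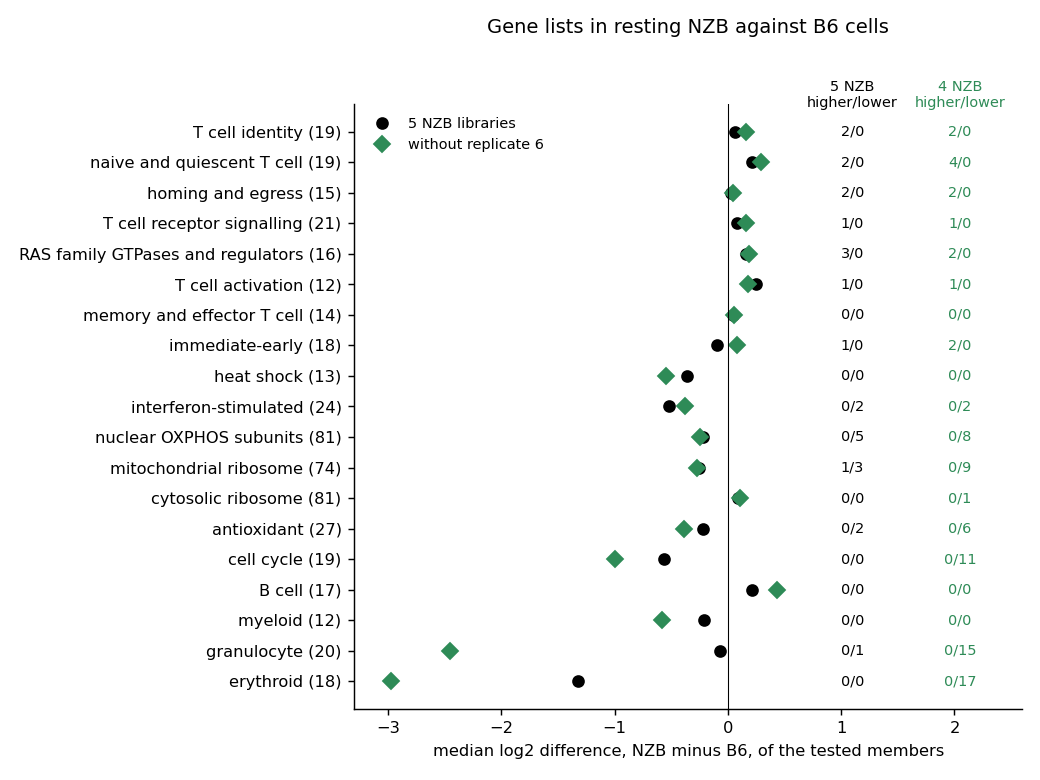
Median log2 difference (NZB minus B6) of the tested members of 19 gene lists, with 5 NZB libraries (black circles) and without NZB replicate 6 (green diamonds). Numbers after the list names are members tested, and the columns at the right give members higher and lower at an adjusted p of at most 0.05. The naive T cell median is 0.22 and 0.29 and the T cell identity median 0.06 and 0.16, while the erythroid median goes from -1.32 to -2.98 and the granulocyte median from -0.07 to -2.45.

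Summed RNA of other spleen cells varied widely within the groups, and the groups overlapped for each of the 4 lists below. The summed level of the erythroid list was 485, 415, 349 and 310 CPM in NZB replicates 1, 3, 4 and 5, 4554 CPM in NZB replicate 6, and 915 to 8116 CPM (median 2629) in B6 libraries. The granulocyte list summed to 1134, 880, 740 and 448 CPM, to 23041 CPM in replicate 6, and to 853 to 9494 CPM (median 3656) in B6. For both, NZB replicate 6 stood far above the other NZB libraries. B cell genes summed to 8691 to 31913 CPM against 12188 to 21006, and myeloid genes to 771 to 3970 CPM against 1209 to 4021, with NZB replicate 6 the highest NZB library in each. Of the 4 lists 1 gene, of the myeloid list, was at 0 in all 11 resting libraries. The immunoglobulin gene Ighm was among the abundant transcripts, at 5146 to 16040 CPM in NZB and 7459 to 12233 CPM in B6.

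**Figure D4:**
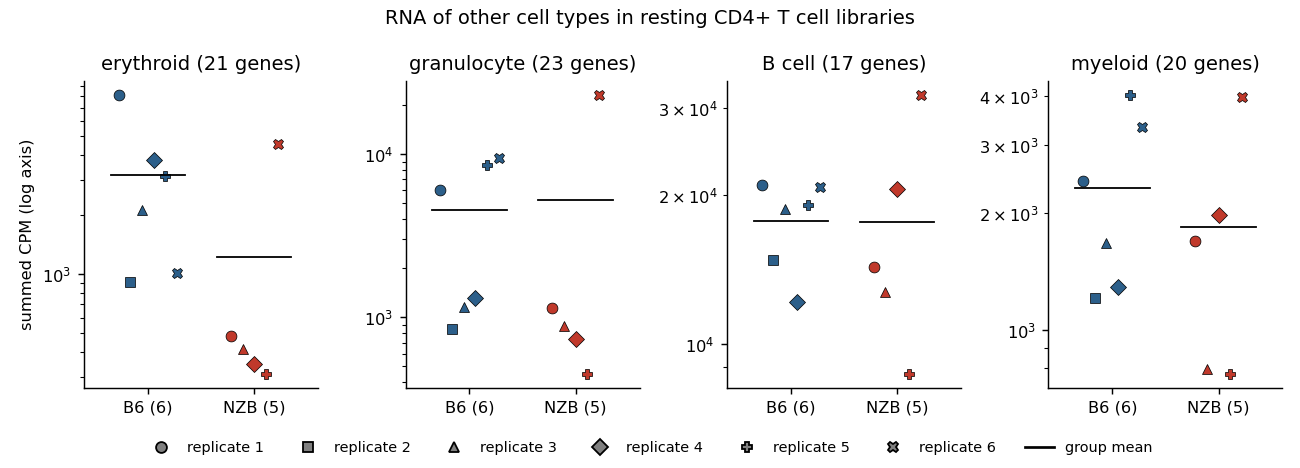
Summed CPM, on log axes, of marker genes of erythroid cells, granulocytes, B cells and myeloid cells in 6 B6 (blue) and 5 NZB (red) resting libraries, with marker shapes for replicate numbers and a line for the group mean. NZB replicate 6 (cross) lies at 4554 CPM for the erythroid list and 23041 CPM for the granulocyte list, while the other NZB libraries lie at 310 to 485 and 448 to 1134 CPM.

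Whether erythroid and granulocyte genes differed between the groups turned on NZB replicate 6. With it, 0 of the 18 tested erythroid genes and 1 of the 20 tested granulocyte genes passed by edgeR, and without it 17 erythroid and 15 granulocyte genes fell in NZB cells. Over all genes 1.12% fell with replicate 6 and 4.07% without it. Hba-a1, an alpha globin gene, was at 37.0, 10.8, 13.0 and 28.9 CPM in NZB replicates 1, 3, 4 and 5, at 604 CPM in replicate 6 and at 37.7 to 872 CPM in B6. Its log2 difference was -0.94 (SE 0.86) with replicate 6 and -3.57 (SE 0.77, adjusted p = 0.0115) without it. Hba-a1 and Hba-a2 are near-identical copies, so the division of reads between them is uncertain. Slc4a1, the anion exchanger of red cells, went from -0.75 to -3.78, and Elane, neutrophil elastase, from -0.44 to -2.53. Camp and Ltf, of neutrophil granules, changed sign, from 0.13 to -2.66 and from 0.43 to -2.57. S100a8, of mature neutrophils, went from -0.09 to -2.76. No tested gene of the B cell list (17) or the myeloid list (12) passed in either case by edgeR, with medians of 0.21 and -0.21 with replicate 6 and 0.43 and -0.58 without it. Cd79a, of the B cell receptor, had a difference of 0.18 (SE 0.52), Lyz2 -0.37 (SE 0.60) and Csf1r, of macrophages, -0.43 (SE 0.39). Scaled to the T cell identity genes, the granulocyte median over 5 NZB libraries was 0.25 in place of -0.07, so its direction turned.

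**Figure D5:**
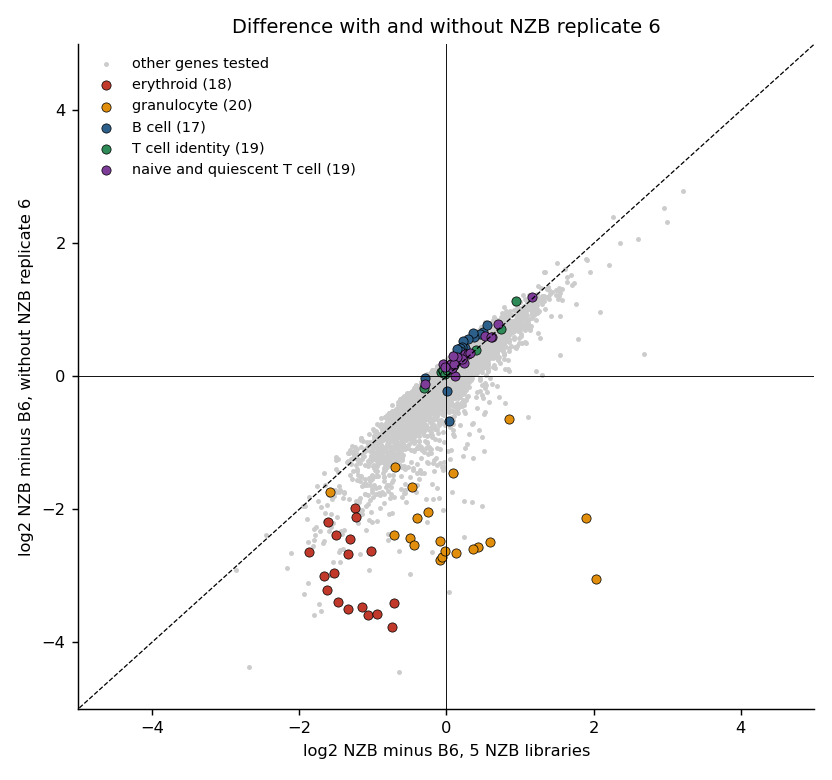
Log2 difference (NZB minus B6) of each gene with 5 NZB libraries (horizontal) and without NZB replicate 6 (vertical), for genes tested in both, with 5 lists in colour and the line of equality dashed (1 gene lies outside the axes). Erythroid (red) and granulocyte (orange) genes fall far below the line, with medians of -2.98 and -2.45 without replicate 6, and T cell genes lie along it.

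The genes called lower without replicate 6 included many of these. Of the 276, 32 belong to the 4 lists of other cells and 8 to the list of 19 cell cycle genes, and none to a T cell list. Of the 39 called lower with all 5 NZB libraries 1 belongs to the lists of other cells, G0s2, and 36 of them stayed called. Cell cycle genes had a median of -0.57 with 0 of 19 passing by edgeR, and of -1.0 with 11 fallen without replicate 6, where 4.07% of all genes fell. For Cdk1, the mitotic kinase gene, the NZB libraries held 19.6, 33.2, 22.3 and 18.1 CPM, and 80.5 CPM in replicate 6, within the B6 range of 32.9 to 104 CPM. Atp5if1, the inhibitor of ATP synthase, and Cox6b2, a complex IV subunit, did not pass with replicate 6 and passed without it (log2 -1.21 and -1.77). Atp5if1 was at 95.3 to 135 CPM in the other NZB libraries, at 311 CPM in replicate 6 and at 139 to 365 CPM in B6. Gpx1, glutathione peroxidase, was at 507 to 649 CPM, at 1372 CPM in replicate 6 and at 680 to 1229 CPM in B6. The respiratory chain median was -0.25 without replicate 6, with 8 of 81 fallen, and the antioxidant median -0.39 with 6 of 27, again beside 4.07% of all genes. For these genes replicate 6 moved in the same direction as its erythroid and granulocyte sums. With the summed other-cell RNA as 1 term and no replicate 6, Atp5if1, Cox6b2, Gpx1 and Cdk1 passed (log2 -1.10, -1.71, -0.64 and -1.49), as did 14 of the 19 cell cycle genes. Over all genes 346 of 10904 passed lower in that fit. With erythroid and granulocyte RNA as 2 terms and no replicate 6, 0 of 10904 genes passed. No cell cycle, respiratory chain or antioxidant gene could then stand out from the rest by this test. The differences of Atp5if1, Cox6b2, Gpx1 and Cdk1 were -0.59, -1.41, -0.39 and -1.09 with the 2 terms.

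With the summed RNA of the 4 lists as 1 term in the fit, 164 genes were called (1.53%), 93 higher (0.869%) and 71 lower (0.663%), and all but 6 of the 112 were among them. The same term without replicate 6 left 221 (2.03%), 31 higher (0.284%) and 190 lower (1.74%). With the 4 sums as 4 separate terms no gene was called by edgeR, 1 passed with no limit on the fold, and 1777 had an unadjusted p under 0.05. Ccr7 had log2 differences of 0.88 to 1.31 over the 44 alternative analyses and passed in 40 of them. The exceptions were the fits of resting libraries by themselves, with and without replicate 6, and the erythroid and granulocyte sums as 2 terms, with and without replicate 6. Pomt1, Cela1 and Sppl2b passed in 37 of 44, Il4ra in 36, mt-Nd4 in 35, Tdrp in 33 and Rras2 in 26. Of the 44, 21 were other settings, and the 4 exceptions for Ccr7 were all among these 21. The rest left out 1 library at a time, among them activated libraries that the resting contrast does not compare. The 44 share most of their data, so these tallies do not count independent tests. The 13 heat shock genes summed to 4487 to 17332 CPM in NZB and 6269 to 36174 CPM in B6 libraries, with 17808 to 36174 CPM in B6 replicates 1 to 4, and none of them passed (median -0.36). Without NZB replicates 5 and 6, 5 of the 13 fell (Hspa8, Hsp90aa1, Hspe1, Hspd1 and Bag3) with a median of -1.11, where 109 of all 11205 genes fell. With the library set as a term the median was -0.01.

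After activation, Ccr7 and the other genes called at rest had no difference that passed, apart from mt-Nd4. The difference at rest minus that after activation was tested for each gene, and 0 of 10702 genes passed by edgeR, with 1618 at an unadjusted p under 0.05. DESeq2 gave 1 gene, with 1785 under 0.05. These tests did not pair resting with activated libraries, though the study describes cells divided into resting and activated portions. For Ccr7 the unadjusted p by edgeR was 0.00195 (adjusted p = 0.175). So this unpaired test does not establish that its difference is particular to resting cells. Rras2 had an adjusted p of 0.25 and Tdrp of 0.3 for the same contrast.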

How the data were processed

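RNA of 24 Tconv libraries was made into bulk MARS-seq libraries, which read the 3′ end of polyadenylated RNA. Per the labels and the study's methods, reads were trimmed with cutadapt, mapped with STAR to the last 1000 bases of genes (GRCm39) and counted with HTSeq. The authors deposited UMI-corrected counts per gene, with no scaling for depth, beside another table whose counts are larger, used as an alternative (1 of its columns matched no sample and was not used). RNA input is 30 ng per the labels, whereas the study's methods name a larger amount.

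Counts were analysed in R 4.3.3 with edgeR 4.0.16: TMM scaling, filterByExpr, 4 groups (23 libraries) in 1 quasi-likelihood fit and Benjamini-Hochberg adjustment. Limma 3.58.1 and DESeq2 1.42.0 gave alternatives. Libraries within a group differed beyond sampling noise (chi-square over its degrees of freedom, 5.63 or more). Named genes were Ccr7, Tdrp and Rras2, the 10 largest called differences in each direction whose groups do not overlap at a mean of at least 10 CPM, up to 6 passing members of each list, mtDNA-encoded genes and label checks, leaving out predicted genes. The same rule was applied again without NZB replicate 6 and with other-cell RNA as a term. Some genes that the rule names are not reported here. Of the 69 genes examined for the text, 29 share their last 1000 bases with another gene. The main fit, the limma fit with quality weights and those with library set or title number as terms were run on simulated counts. The simulation held no outlying library. The fits with other-cell RNA as terms, DESeq2 and the block by label number were not tested in this way. Members and lists were chosen with earlier results of these data known.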

Additional observations from a re-analysis of the deposited data

Results flagged for a closer look

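Groups of 5 or 6 libraries, 154 in all, were formed from 8 list sums and 69 genes. In each the most extreme library was tested for its distance from the others, and 23 stood apart. Chance alone would give about 1 in 20, but that rate does not hold here. The genes of a list move together, and some genes were named because they passed without NZB replicate 6 or after their values were seen. NZB replicate 6 stood apart in 14 of the 23. It held 4554 CPM of the erythroid list (310 to 485 in the other NZB libraries), 23041 of the granulocyte list (448 to 1134) and 2015 of the cell cycle list (930 to 1221). By gene it held 604 CPM of Hba-a1, 77.2 of Alas2, which starts heme synthesis, 147 of Slc4a1, 826 of Elane, 358 of S100a8, 3849 of Camp, 1980 of Ltf, 80.5 of Cdk1, 311 of Atp5if1, 22.9 of Cox6b2 and 1372 of Gpx1, all above the other NZB libraries.

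NZB replicate 5 stood apart for Ccr7 at 1985 CPM (1212 to 1306 in the others), for Ppp2r2a at 93.2 (31.2 to 46.6), and on the low side for Sppl2b at 12.5 (20.8 to 23.9) and Ly6a at 71.2 (129 to 144). Among B6 libraries, replicate 6 stood apart for Ccr7 at 950 CPM (503 to 670), replicate 1 for Hba-a1 at 872 (37.7 to 221) and Alas2 at 128 (4.07 to 30.9), replicate 2 for Cd8a at 37.1 (15 to 20.4), and replicate 5 on the low side for the T cell identity sum at 9365 (11344 to 12174).

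The resting NZB library left out for its depth, replicate 2, which entered the fit of all 24 libraries, held 13636 CPM of mtDNA-encoded transcripts, where the other resting libraries held 119 to 252. Its total of 51409 counts makes single genes in it imprecise.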

How the results depend on the processing

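Counts of genes called or passing moved by over 1.5 times from 112 and 390 as follows. Without the libraries NZB resting 6 and NZB activated 6 (21 libraries) 323 were called and 662 passed with no limit on the fold. The resting libraries by themselves gave 1 and 1, and 1 and 2 without NZB replicate 6. Scaling to the T cell identity genes gave 1 and 1 (73 higher and 39 lower became 1 and 0). Limma voom with quality weights called 186, 15 higher and 171 lower. The second count table passed 215. Other-cell RNA as 4 terms gave 0 and 1, as 2 terms 0 and 0, with 1997 at an unadjusted p under 0.05, and as 2 terms without NZB replicate 6 0 and 0, with 669. As 1 term without it 221 were called. The library set as a term gave 5 and 7, and 217 called without NZB replicate 6. Without NZB replicates 5 and 6, 123 passed. The 2-term fits, the set term without NZB replicate 6 and leaving out replicates 5 and 6 together were chosen after seeing the data. Leaving out 1 library at a time gave 1 to 315 called and 1 to 745 passing. A replicate block by title number gave 30 and 68, and a block by label number (limma, correlation 0.00883) 45 and 132. Deviations from the group means of samples with the same title number correlated at -0.23 to 0.21 over 5 pairs (across genes). For samples with the same label number, resting and activated, they correlated at -0.15 to 0.24 over 9 pairs. Not every pair deviated together, and the main fit did not read the numbers as pairs. The study describes isolated cells divided into resting and activated portions, so such pairs may exist. These correlations cannot exclude them. DESeq2 (113 and 367), median-of-ratios size factors (119 and 390), no filter (123 and 289), a stricter filter (101 and 451) and all 24 libraries (107 and 292) stayed within 1.5 times.

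Values that turned their direction were Camp, Lcn2 and Ltf without NZB replicate 6 (-2.66, -2.60 and -2.57, against 0.13, 0.37 and 0.43 with it) and in the 21 libraries (-2.62, -2.56 and -2.53; leaving out single libraries, their highest values were 0.57, 0.84 and 0.91, without B6 replicate 6), Nr4a3, Cystm1 and Sesn2 without NZB replicates 5 and 6 (-0.18, -0.25 and -0.24), Sesn2 with quality weights (-0.015) and mt-Nd4 with all 24 libraries (0.81). The cause was not tested. Depth limits genes of low level: mt-Nd4 rests on 16 to 40 counts in each resting NZB library.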
